A study of Mus musculus with 6 samples.

Results

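A set of 7 transcription factor genes that mark or pattern the mesoderm around the gut were followed in tissue above and below the aorta of the mouse embryo. They are the homeobox genes Hlx, Nkx2-3, Barx1, Tlx1 and Isl1 and the COUP-TF nuclear receptor genes Nr2f1 and Nr2f2. They were taken by gene symbol from the platform's annotation, which names all 7 of them, each on 1 row, among 24973 rows. Tissue was laser-microdissected from cryosections of unfixed C57Bl/6 embryos at E11.5, and no genetic change or treatment is named. Dorsal tissue lay between notochord and aortic roof, and ventral tissue lay directly under the aorta, from the same embryos. Each tissue was profiled on 3 Affymetrix arrays, titled as biological replicates 1 to 3, and precision throughout is limited by this small number. The labels do not say how many embryos or sections went into an array. The question is how the 2 sides of the vessel differ, the ventral side being studied as a niche of hematopoietic stem cells.

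Splanchnic mesoderm is the layer of the lateral plate that surrounds the gut tube and gives rise to gut muscle, the mesenchyme of visceral organs and the spleen. Hlx, Nkx2-3, Barx1 and Tlx1 belong to the NK-like homeobox genes: Hlx is needed for growth of the gut and liver, Barx1 for the stomach, and Tlx1 and Nkx2-3 for the spleen. Isl1 is a LIM-homeobox gene of motor and sensory neurons, sympathetic neurons and several mesodermal tissues. Nr2f1 (COUP-TFI) and Nr2f2 (COUP-TFII) encode orphan nuclear receptors that mostly repress transcription, and Nr2f2 is known in visceral mesenchyme and in venous endothelium.

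Hlx, Nr2f1 and Nr2f2 were higher on every ventral array than on any dorsal array, while Isl1, Barx1, Tlx1 and Nkx2-3 overlapped between the tissues. Of the 7 genes, 6 had a mean over the arrays above the brightness filter, which was set at the median of all rows (4.52, log2), and each of these 6 was above it in both tissues. In limma, 1 of the 6, Hlx, passed an adjusted p of 0.05, against 0.515% of the 12028 genes tested. The number of genes whose ventral arrays all lay above the dorsal ones was 3 of 6, against 7.5% of all genes tested. Differences above 0 were found for 6 of 6, against 47.7% of all genes tested, but those of Barx1 and Tlx1 turned negative without replicate 2 (-0.18 and -0.31). The median log2 difference, ventral minus dorsal, of the 6 genes was 1.31, and that of all genes tested was -0.01. The 3 genes without overlap were also those with an unadjusted p under 0.05, which 10.7% of all genes tested had. These are bulk tissues, so more cells of a type and more RNA per cell cannot be told apart.

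**Figure D1:**
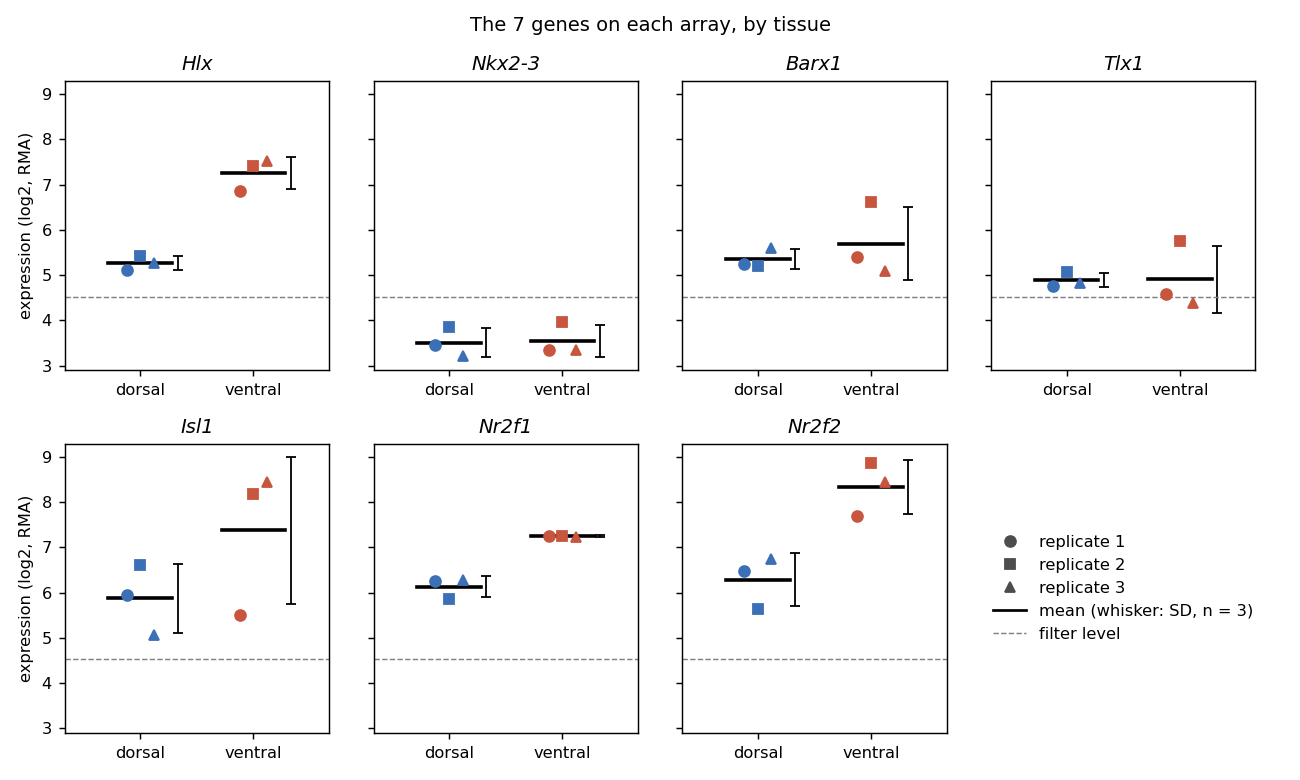
Expression (log2, RMA) of the 7 genes on each array; points are arrays, shaped by replicate number, lines are means, whiskers are SD (n = 3) and the dashed line is the filter level of 4.52. Ventral arrays lie above all dorsal arrays for Hlx, Nr2f1 and Nr2f2, Isl1 is spread widely, and Nkx2-3 lies below the filter level on all arrays.

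Hlx was the 1 gene of the 7 that passed. On the log2 scale its level was 5.11, 5.42 and 5.27 on dorsal arrays 1 to 3 and 6.86, 7.41 and 7.52 on ventral arrays 1 to 3. The groups did not overlap, and the lowest ventral array exceeded the highest dorsal one. The dorsal mean was 5.26 ± 0.16 (SD, n = 3) and the ventral mean 7.26 ± 0.35 (n = 3), a 3.997-fold difference. The log2 difference was 2.00 ± 0.19 (SE; 95% confidence interval 1.55 to 2.45; limma, adjusted p = 0.0183), and all 3 same-numbered pairs gave a value between 1.76 and 2.25. By p it stood 16th of the 12028 genes tested. Without the brightness filter, where 24015 genes are tested and 0.0416% of them pass, Hlx did not pass (adjusted p = 0.0647; 0.00871 to 0.0647 over all alternatives).

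Both COUP-TF genes were higher in ventral tissue on all arrays, and neither passed the threshold. Nr2f1 was at 6.26, 5.86 and 6.27 on dorsal arrays 1 to 3 and at 7.26, 7.26 and 7.24 on ventral arrays 1 to 3. The 3 ventral arrays were nearly equal, with an SD of 0.01, against 0.24 on the dorsal side. Its log2 difference was 1.12 ± 0.19 (SE; interval 0.68 to 1.57; limma, adjusted p = 0.0824), a 2.18-fold difference. Fitted without the replicate number as a block, where 0.491% of genes pass, it passed (adjusted p = 0.0436), as it did among the 6256 genes with a mean level of at least 6 (adjusted p = 0.0498). Over all alternatives its adjusted p ran from 0.0436 to 0.213.

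Nr2f2 was at 6.48, 5.63 and 6.75 on dorsal arrays 1 to 3 and at 7.68, 8.86 and 8.45 on ventral arrays 1 to 3. Both tissues varied widely, with an SD of 0.58 on dorsal and 0.60 on ventral arrays, but did not overlap. The log2 difference of 2.04 ± 0.38 (SE; interval 1.13 to 2.96; limma, adjusted p = 0.113) was of about the size of that of Hlx, with a standard error that was larger. The difference was 1.20 in pair 1, 3.23 in pair 2 and 1.70 in pair 3, so pair 2 stood apart through a low dorsal and a high ventral array.

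The ventral-dorsal difference of Nr2f2 exceeded that of its paralogue Nr2f1 by 0.92 (log2). The difference between the 2 genes, Nr2f2 minus Nr2f1, was 0.22, -0.23 and 0.48 on dorsal arrays 1 to 3 and 0.43, 1.60 and 1.21 on ventral arrays 1 to 3. Ventral array 1 lay below dorsal array 3, so the groups overlapped. An exact two-sided permutation test over the 6 arrays gave p = 0.2, where 3 against 3 arrays can go no lower than 0.1, so unequal change of the paralogues was not shown.

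**Figure D2:**
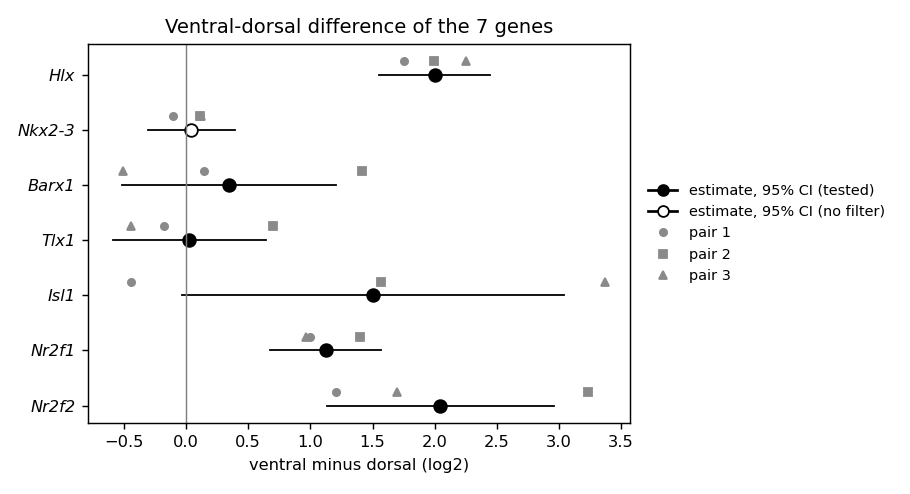
Ventral minus dorsal difference (log2) of each gene with its 95% confidence interval from limma, and the difference in each same-numbered pair as small symbols; the open circle for Nkx2-3 is from the fit without the brightness filter. The intervals of Hlx, Nr2f1 and Nr2f2 lie above 0, and that of Isl1 runs from -0.04 to 3.04.

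Within the dorsal tissue Hlx and the COUP-TF genes did not run alike: dorsal array 2 was the highest for Hlx and the lowest for Nr2f1 and Nr2f2. The DNA just before the start sites of these 3 genes is shown because they are the ones whose arrays separated by tissue. The sequences are the 250 bases before each start, from RefSeq on GRCm38.p6, 5′ to 3′ on the gene's own strand, with CCAAT in either orientation (CCAAT or ATTGG) in capitals. That of Hlx is chr1:184732494-184732743, minus strand. That of Nr2f1, at the start farther upstream of the 2 listed, is chr13:78198874-78199123, minus strand. That of Nr2f2 is chr7:70366747-70366996, minus strand.
Hlx: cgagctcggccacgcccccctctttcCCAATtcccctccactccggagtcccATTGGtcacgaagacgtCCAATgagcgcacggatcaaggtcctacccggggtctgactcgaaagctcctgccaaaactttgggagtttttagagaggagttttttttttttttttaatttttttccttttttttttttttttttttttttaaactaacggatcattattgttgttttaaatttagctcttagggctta
Nr2f1: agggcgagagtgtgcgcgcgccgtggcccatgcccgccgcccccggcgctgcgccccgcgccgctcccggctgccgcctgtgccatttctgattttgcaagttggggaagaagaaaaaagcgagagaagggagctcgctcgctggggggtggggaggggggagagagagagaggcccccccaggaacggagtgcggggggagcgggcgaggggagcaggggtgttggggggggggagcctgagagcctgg
Nr2f2: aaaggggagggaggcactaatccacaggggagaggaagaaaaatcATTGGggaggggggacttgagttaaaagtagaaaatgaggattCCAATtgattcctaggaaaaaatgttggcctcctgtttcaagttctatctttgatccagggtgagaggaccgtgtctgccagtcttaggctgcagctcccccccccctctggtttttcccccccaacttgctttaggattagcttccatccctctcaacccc
The windows differ in base composition, with 41.6% G and C for Hlx, 72% for Nr2f1 and 50% for Nr2f2, against a median of 52.4% over 32851 windows. CCAAT, a motif common in promoters that was chosen after the sequences were seen, occurs 3 times for Hlx, 2 times for Nr2f2 and not for Nr2f1. It is also found for Nkx2-3, Isl1 and Tlx1, whose arrays overlapped, so 5 of the 7 genes hold it, as do 33.8% of all windows. A further 4 motifs were searched on both strands and found in none of the windows of the 7 genes: AGGTCA, the half-site bound by nuclear receptors (14% of all windows), AGATAA, one form of the site bound by GATA factors (9.99%), TAATTA, bound by homeodomains (4.84%), and CAAGTG, bound by NK2 factors (11.6%). Only these exact letters were searched, so other forms of such sites may be present.

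Each COUP-TF gene is overlapped at its 5′ end by a long noncoding RNA gene on the opposite strand in RefSeq, and both noncoding genes were higher in ventral tissue on every array. They were chosen after their values were seen. A830082K12Rik, which shares 857 bases with Nr2f1, was at 5.38, 4.88 and 5.66 on dorsal arrays 1 to 3 and at 6.57, 6.98 and 6.53 on ventral arrays 1 to 3. Its log2 difference was 1.38 ± 0.27 (SE; limma, adjusted p = 0.118), and its correlation with Nr2f1 over the 6 arrays was 0.98. Both rows separate by tissue, which by itself raises such a correlation, and 39 tested genes exceeded 0.95 with Nr2f1. On ventral arrays 1 to 3 Nr2f1 was nearly flat (7.26, 7.26 and 7.24), unlike A830082K12Rik, which did not pass the threshold.

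B130024G19Rik, which shares 1364 bases with Nr2f2, was at 6.14, 4.93 and 4.84 on dorsal arrays 1 to 3 and at 6.53, 8.48 and 8.63 on ventral arrays 1 to 3. Its log2 difference was 2.57 ± 0.64 (SE; limma, adjusted p = 0.207), and its correlation with Nr2f2 was 0.91. Among dorsal arrays it was lowest on array 3 (4.84), where Nr2f2 was highest (6.75). Pair 1 differed by only 0.38, against 3.55 and 3.79 in pairs 2 and 3. Where the array's probes lie, and on which strand, is not given in the sources used here, so whether a row carries signal of its overlapping partner was not tested.

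**Figure D3:**
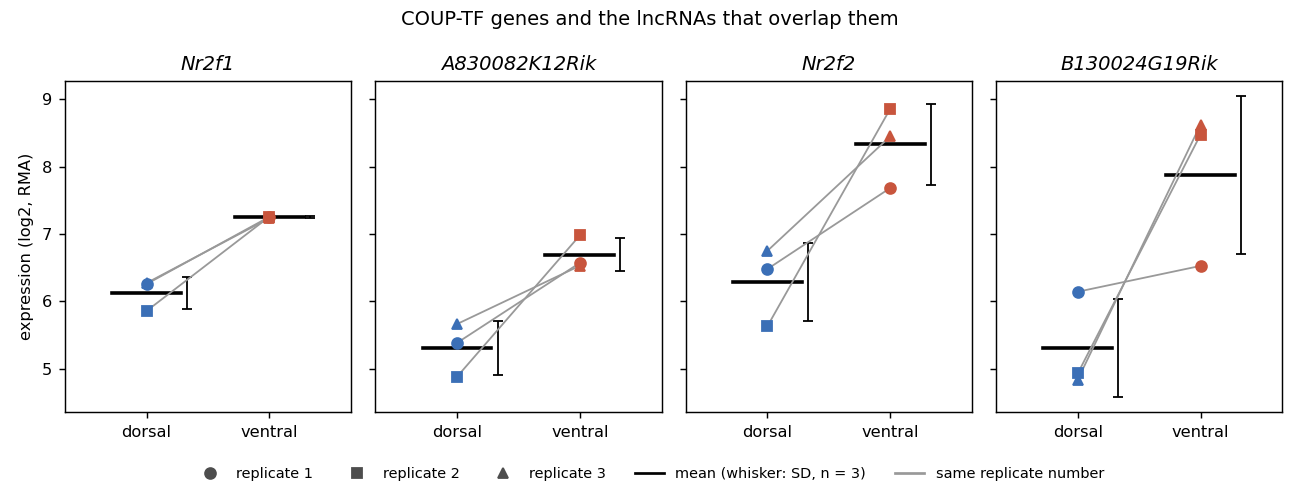
Expression (log2, RMA) of Nr2f1, Nr2f2 and the long noncoding RNA genes that overlap them, by tissue; grey lines join arrays of the same replicate number, black lines are means and whiskers are SD (n = 3). All lines rise from dorsal to ventral, and that of replicate 1 for B130024G19Rik rises least (0.38).

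The protein-coding or otherwise named genes next to the 7 genes in RefSeq order were set beside them. Of 14 such neighbours 10 were tested and 0 passed in limma. Dusp10, a phosphatase of stress-activated kinases beside Hlx, had a log2 difference of 0.89 ± 0.21 (SE; limma, adjusted p = 0.191), with ventral arrays above dorsal ones. Arrdc3, an arrestin-domain gene beside Nr2f1, was the other neighbour without overlap (0.52 ± 0.21, adjusted p = 0.463).

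Isl1 had the widest spread. It was at 5.94, 6.60 and 5.07 on dorsal arrays 1 to 3 and at 5.50, 8.18 and 8.44 on ventral arrays 1 to 3. Ventral arrays 2 and 3 were above all dorsal arrays, but ventral array 1 was below dorsal arrays 1 and 2. The pairs gave -0.44, 1.57 and 3.37, for a log2 difference of 1.50 ± 0.64 (SE; limma, adjusted p = 0.474). Without replicate 1 the difference was 2.47 (adjusted p = 0.0767) and without replicate 3 it was 0.57 (adjusted p = 0.807).

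Within each tissue, Isl1 was lowest on the array where sympathoadrenal genes were lowest. These genes mark the precursors of sympathetic neurons and adrenal chromaffin cells, in which Isl1 is known to be expressed. Relative to each gene's own mean, the 8 tested sympathoadrenal genes averaged 0.68, 0.60 and -0.61 on dorsal arrays 1 to 3 and -1.18, 0.20 and 0.31 on ventral arrays 1 to 3. This pattern was not particular to them. The 17 tested splanchnic partner genes, described below, averaged -0.25, 0.03 and -0.63 on dorsal and -0.10, 0.52 and 0.44 on ventral arrays, lowest on the same arrays. The 6 tested coelomic epithelium and gonadal ridge genes, some of them shared with that list, were lowest there too. They averaged -0.70, -0.88 and -1.05 on dorsal and 0.57, 1.10 and 0.95 on ventral arrays, so they were higher ventrally, as Isl1 was on average. Dbh, the enzyme that makes noradrenaline, was at 9.55, 9.66 and 6.75 on dorsal arrays 1 to 3 and at 5.44, 8.13 and 8.59 on ventral arrays 1 to 3. Between the tissues the sympathoadrenal list did not go with Isl1: 6 of its 8 genes had negative differences, the median was -0.54, and 0 passed. Over all 9 rows of the list the mean level was 5.33 to 6.52 on dorsal and 4.85 to 6.16 on ventral arrays. Of the motor and sensory neuron list only 3 of 13 genes were above the filter, all pan-neuronal and all with negative differences (Stmn2, -1.30 ± 0.33; Tubb3, -0.95 ± 0.24; Elavl3, -0.64 ± 0.18), none passing. The motor neuron genes Mnx1, Lhx3 and Chat were below it, as was Slc5a7, the choline transporter gene of cholinergic neurons, at 3.54, 3.63 and 3.54 on dorsal and 3.63, 4.41 and 5.58 on ventral arrays. The part of any of these cells in the Isl1 values was not tested.

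Barx1 and Tlx1 did not separate the tissues, and both were highest on ventral array 2. Barx1 was at 5.25, 5.19 and 5.60 on dorsal arrays 1 to 3 and at 5.39, 6.60 and 5.09 on ventral arrays 1 to 3, a log2 difference of 0.35 ± 0.36 (SE; interval -0.51 to 1.21; limma, adjusted p = 0.814). Without replicate 2 the difference was -0.18, so its sign rests on that pair. Tlx1 was at 4.76, 5.06 and 4.83 on dorsal arrays 1 to 3 and at 4.59, 5.76 and 4.39 on ventral arrays 1 to 3, a log2 difference of 0.02 ± 0.26 (SE; interval -0.59 to 0.64; limma, adjusted p = 0.987). Without replicate 2 it was -0.31. The correlation of Barx1 with Tlx1 over the 6 arrays was 0.87.

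Nkx2-3 lay below the filter and was not tested with the rest. It was at 3.45, 3.85 and 3.22 on dorsal arrays 1 to 3 and at 3.34, 3.96 and 3.34 on ventral arrays 1 to 3, with replicate 2 highest in both tissues. The means of 3.51 ± 0.32 (SD, n = 3) and 3.55 ± 0.36 (n = 3) differed by 0.04, and in the fit without the filter the 95% confidence interval of the difference was -0.31 to 0.39 (limma, adjusted p = 0.972). At this level, in the lower part of the array's range, a true difference could be compressed.

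Genes known to act with these factors in splanchnic mesoderm were compared from a list chosen with earlier results of these data known. Of 17 tested, 4 passed in limma, against 0.515% of all genes tested. Given how the list was chosen, this count is not independent evidence. Tcf21, a bHLH factor needed for the spleen and other viscera (log2 difference 4.70 ± 0.29, adjusted p = 0.00347), Gata6, a zinc-finger factor (3.19 ± 0.19, adjusted p = 0.00336) and Zfpm2, a cofactor that binds GATA and COUP-TF proteins (2.28 ± 0.22, adjusted p = 0.0211), were on the ventral side. The forkhead gene Foxf2 was higher in dorsal tissue (-2.71 ± 0.25, adjusted p = 0.0183; 0.0742 without the block). Tcf21 had a dorsal mean of 3.95 and Foxf2 a ventral mean of 3.79, both under the filter level, so each was tested only through the tissue where it is high and its difference gives no exact ratio of transcript. Zfpm2 had a dorsal mean of 4.55, barely above the filter level, with dorsal array 1 at 3.91, so its difference too gives no exact ratio. The list held differences in both directions, with 12 positive and 5 negative differences and a median of 0.64. Gata6 was at 4.48 to 5.48 on dorsal and 7.47 to 8.58 on ventral arrays. Among genes that did not pass, Gata4 differed by 1.78 ± 0.34 and Wt1, a factor needed for the spleen, by 1.29 ± 0.20, while Nkx3-2, a homeobox gene of both spleen mesoderm and sclerotome, differed by -1.80 ± 0.42. Foxf1 overlapped between tissues, with a difference of -1.71 ± 0.72 that was -0.57 without replicate 1 and -2.73 without replicate 3.

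**Figure D4:**
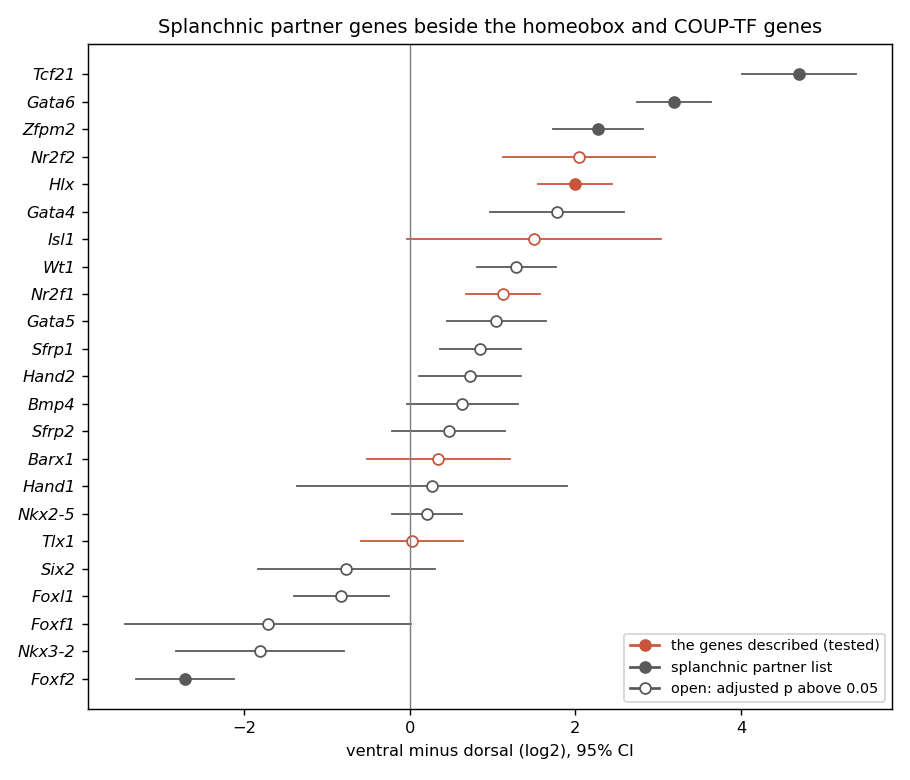
Ventral minus dorsal difference (log2) with 95% confidence interval from limma for the 6 tested genes (red) and 17 splanchnic partner genes (grey), in order of size; filled circles passed an adjusted p of 0.05. Hlx and Nr2f2 lie between Zfpm2 (2.28) and Gata4 (1.78), and Foxf2 (-2.71) lies at the dorsal end.

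The closest relatives of the 7 genes included none that passed. Of 28 paralogues that are named, 13 were above the filter and 0 passed in limma, with 6 positive and 7 negative differences and a median of -0.12. The largest were Nkx3-2 (-1.80) and Lhx9, a LIM-homeobox gene of the gonadal ridge (0.91 ± 0.47). The third COUP-TF gene, Nr2f6, differed by -0.18 ± 0.18 (limma, adjusted p = 0.804). Isl2, Barx2 and Tlx3, the nearest relatives of Isl1, Barx1 and Tlx1, were below the filter, and Tlx2 differed by -0.26 ± 0.19. The ventral mean of Tlx2 was 4.51, under the filter level, so it was tested only through its dorsal values.

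Cofactors of these proteins were compared as well. Of 20 tested, Zfpm2 was the 1 that passed, and the median difference of the list was 0.08, with 11 positive and 9 negative values. Ldb1, the adaptor that links LIM-homeodomain proteins, is named for its tie to Isl1 and not for its value, and differed by 0.12 ± 0.17 (SE).

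Because Nr2f2 is a factor of venous identity, vessel genes were listed beside it. Of 8 tested venous and lymphatic genes, with Nr2f2 among them, 0 passed, and the median was 0.44. The apelin receptor gene Aplnr differed by 1.19 ± 0.30 and overlapped between tissues, Ephb4, a receptor of venous endothelium, by -0.07 ± 0.17 (SE), and the lymphatic genes went in both directions. Pdpn, a surface glycoprotein of lymphatic endothelium and other tissues, differed by -1.23 ± 0.29, and Lyve1, a hyaluronan receptor of lymphatic endothelium and macrophages, by 0.79 ± 0.17 (SE; limma, adjusted p = 0.158), both without overlap between tissues, while Prox1 differed by 0.32 ± 0.39. Of 11 arterial and Notch genes 0 passed, with a median of -0.01, and the largest differences were Nrp1 (0.95 ± 0.30) and Hey2 (0.90 ± 0.25). General endothelial genes had positive differences in 7 of 7, with a median of 0.56 and 0 passing, and their mean level over all 8 rows was 5.31 to 6.09 on dorsal and 5.91 to 6.42 on ventral arrays. Of these 7, only 2, Kdr and Cldn5, did not overlap between tissues. The difference of Tie1 was -0.22 without replicate 1, and that of Emcn was 0.08 without replicate 3. The part of the endothelial genes in the Nr2f2 difference was not tested.

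Retinoic acid and hedgehog signals, both known to act on COUP-TF genes, gave 1 passing gene. Of 11 retinoic acid genes, Aldh1a1, which makes retinoic acid, passed (1.62 ± 0.18; limma, adjusted p = 0.0258), with 7 positive and 4 negative differences. Its dorsal arrays were at 3.86 to 4.15, all under the filter level, so it too was tested only through its ventral values. It did not pass without replicate 1 (adjusted p = 0.0521) or replicate 3 (0.0750). Crabp1, a cytoplasmic carrier of retinoic acid, differed by -1.14 ± 0.22 without passing. Of 12 hedgehog genes 0 passed, with 6 positive and 6 negative differences and a median of -0.06. The largest differences were in the pathway targets Ptch1 (-1.63 ± 0.24; limma, adjusted p = 0.0638) and Gli1, which overlapped between tissues (-1.20 ± 0.22, adjusted p = 0.106).

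Markers of other tissues differed between the sides together with Hlx, Nr2f1 and Nr2f2. Genes of coelomic epithelium and gonadal ridge had positive differences in 6 of 6 tested, with Tcf21 passing and a median of 1.23, and their mean level over 9 rows was 4.41 to 4.76 on dorsal and 5.38 to 5.69 on ventral arrays. Of these 6, Tcf21, Gata4 and Wt1 are also in the splanchnic partner list and Lhx9 in the paralogue list, so the lists are not independent. As given above, Tcf21 was tested only through its ventral values. Upk3b, a marker of mesothelium, differed by 1.18 ± 0.17 (SE; limma, adjusted p = 0.0631), and Nr5a1 and Msln were below the filter in both tissues. Emx2, a homeobox gene of the urogenital ridge that was also left untested by the filter, went the other way, at 5.01, 3.66 and 7.98 on dorsal and 3.62, 3.23 and 3.24 on ventral arrays, a difference of -2.19 that is -0.91 without replicate 3. Smooth muscle and pericyte genes had positive differences in 8 of 8, Rgs5 passing (2.18 ± 0.24, adjusted p = 0.0258; 0.0732 without the block and 0.0675 without replicate 3), with mean levels of 5.16 to 6.04 dorsally and 6.12 to 7.53 ventrally. Without replicate 1 the difference of Myh11 was -0.05 and that of Tagln 0.03, while the others stayed positive. Relative to each gene's own mean, the 8 genes averaged -0.64, -0.17 and -1.05 on dorsal and 1.32, 0.61 and -0.09 on ventral arrays. Des, among these 8, had a dorsal mean of 4.06, under the filter level, so it was tested only through its ventral values. Sclerotome and cartilage genes had negative differences in 6 of 7, Pax1 (-2.60 ± 0.24, adjusted p = 0.0183) and Col2a1 (-1.75 ± 0.19, adjusted p = 0.0258) passing, with mean levels over 8 rows of 6.39 to 7.18 dorsally and 5.13 to 5.44 ventrally. The ventral mean of Pax1 was 4.53, barely above the filter level, with ventral arrays 1 and 3 under it (4.47 and 4.21). Col2a1 did not pass without replicate 1 (adjusted p = 0.0513) or replicate 2 (0.0557). The part of these tissues in the differences of Hlx, Nr2f1 and Nr2f2 was not tested.

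Other lists showed no passing gene. Gut endoderm and pancreas genes had 2 positive and 3 negative differences among 5 tested, and the endoderm genes Foxa2, Foxa3, Cdx2 and Pdx1 were below the filter. Sox2 had the largest difference (-2.37 ± 0.83), with -0.09, -1.91 and -5.09 in pairs 1 to 3, so it rested mostly on dorsal array 3, at 9.69 against 5.36 and 6.50 on the other dorsal arrays. Dorsal array 3 was also the highest array for Emx2 (7.98), and for Six2 (6.72), Lhx2 (6.60) and Nr2e1 (6.54, against 3.00 and 2.78 on dorsal arrays 1 and 2) from other lists. Other listed genes, such as Dbh and Foxf1, were lowest among dorsal arrays there. What sets this array apart was not tested. Of 3 tested mesonephric genes the largest difference was in Osr1 (0.70 ± 0.42). Erythroid genes had negative differences in 6 of 6 (Alas2, -0.93 ± 0.26) and macrophage genes positive ones in 7 of 7 (Fcgr3, 0.91 ± 0.23). The dorsal mean of Fcgr3 was 4.26, under the filter level, so it was tested only through its ventral values.

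**Figure D5:**
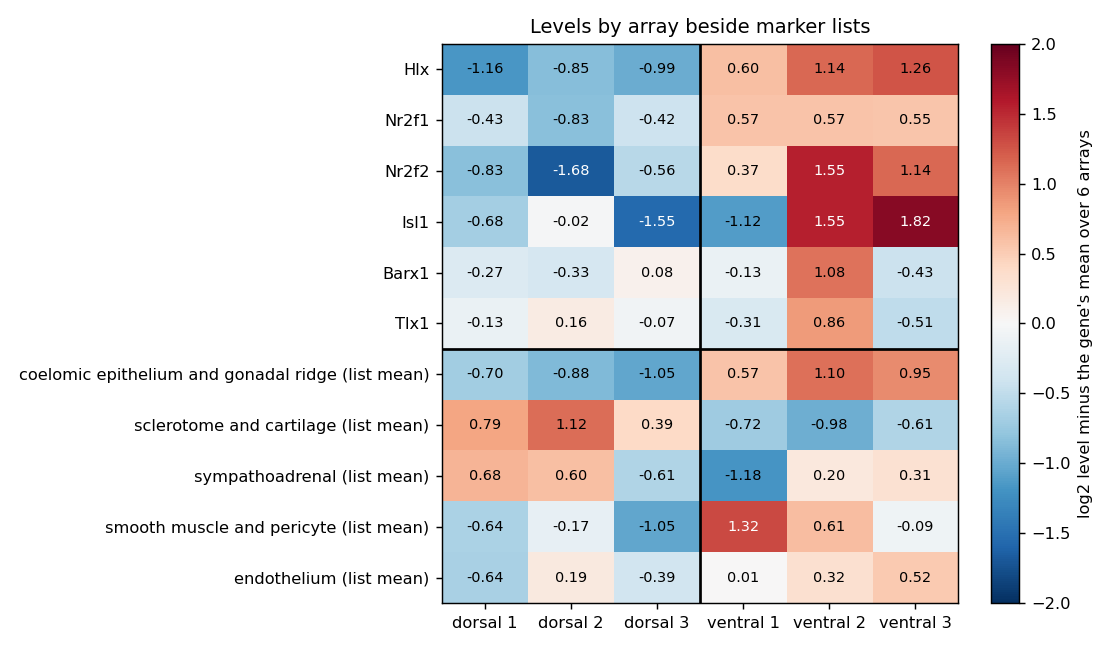
Level on each array minus the mean over the 6 arrays (log2) for 6 genes, above the black line, and the mean of the same quantity over the tested genes of 5 marker lists, below it; red is higher and blue lower. Isl1 is low on dorsal array 3 and ventral array 1, as the sympathoadrenal list is (-0.61 and -1.18), while Barx1 and Tlx1 are highest on ventral array 2. Within each tissue the coelomic epithelium and gonadal ridge list is lowest on the same array (-1.05 and 0.57). The splanchnic partner list, which was also lowest on the same array within each tissue, is not shown.

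Genes with the most similar pattern to each tested gene were found by Pearson's r over the 6 arrays, among 11020 genes (predicted genes, clones and small RNAs were not considered). For Hlx they were Rpn2, Flnc and Gask1b (r of 0.997, 0.996 and 0.992), of which Gask1b differed by 2.75 between tissues and Rpn2 by only 0.13. For Nr2f1 they were Frzb, a secreted Wnt antagonist, Jak1 and Tmtc2 (0.989, 0.986 and 0.986), and Frzb (1.89, adjusted p = 0.0208; 0.0507 without replicate 3) and Tmtc2 (3.02, adjusted p = 0.00461) passed in limma. For Nr2f2 they were Bnip3l, Zdhhc2 and Zfp174 (0.995, 0.991 and 0.989). For Isl1 they were Rbm12b2, Cutc and Lrrfip1, with r from 0.984 to 0.991. For Barx1 they were Esr2, Shld1 and Zscan22, and for Tlx1 Mrps26, Olfr887 and Rasa3, none of them passing. With 6 arrays high values are reached by many genes. Over all 12028 genes tested, 67 exceeded 0.95 with Hlx, 40 with Nr2f2, 39 with Nr2f1 and 24 with Isl1.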

How the data were processed

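RNA was amplified by the single-primer method of the Ovation Pico kit before labelling, per the labels' protocols. Such amplification can distort ratios between transcripts. The deposited values are log2 expression levels made by the authors with Affymetrix Expression Console and RMA, per the submitters' processing notes. The notes name no version, probe grouping or genome build. Array medians were 4.49 to 4.55, and correlations between arrays 0.956 to 0.976 over all rows.

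Of 24973 rows, 24015 had 1 gene symbol in the platform annotation, 0 several and 958 are unnamed here. Ventral minus dorsal was fitted with limma 3.58.1 in R 4.3.3 (lmFit, eBayes without a trend), two-sided, with the replicate number as a block and Benjamini-Hochberg adjustment over 12028 genes with a mean of at least 4.52. Errors after a log2 difference are standard errors of this fit, with 6.41 degrees of freedom. The fit was tested on simulated data with independent noise on each array and no replicate effect, so that test does not bear on the block. A block was chosen since the same embryos gave both tissues per the labels, although these do not tie a number to an embryo. After subtraction of tissue means, same-numbered arrays correlated by 0.0992, 0.0763 and 0.226, and differently numbered ones by -0.153 to 0.0805, so support for the pairing is weak for numbers 1 and 2 and stronger for 3. Where an array pooled embryos, p-values reflect variation among pools. The genes and the 17 gene lists were chosen with earlier results of these data known; 202 of 218 list entries were found. From each list, genes past the threshold and those with large differences are named. RefSeq tables (GRCm38.p6) gave neighbouring genes and promoter windows for all 7 genes. Alternatives were no block, no filter or a stricter one (a mean of at least 6), cyclic loess, a shift of arrays to 1 median, an intensity trend, and leaving out each replicate number.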

Additional observations from a re-analysis of the deposited data

How the results depend on the processing

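The direction of Hlx, Nr2f1, Nr2f2 and Isl1 was ventral under all 9 alternatives run. Hlx passed in 8 of 9 and not without the brightness filter (2.00, adjusted p = 0.0647). Nr2f1 passed with no replicate block (1.12, adjusted p = 0.0436) and under the stricter filter (1.12, adjusted p = 0.0498). Of the 6 genes tested 1 passed in the main analysis and 2 with no replicate block, while 2 of 4 tested passed under the stricter filter and 0 of 7 without the filter, where 1950 genes had an unadjusted p under 0.05; without each replicate number in turn it was 1. Over all genes 62 passed, 59 with no replicate block (45 of them shared), 55 of 6256 under the stricter filter, 10 without the filter, 94 with an intensity trend, and 48 to 75 without each replicate number. Leaving out each number gave 1.87 to 2.12 for Hlx, 0.98 to 1.20 for Nr2f1, 1.45 to 2.47 for Nr2f2, 0.57 to 2.47 for Isl1, -0.18 to 0.78 for Barx1 and -0.31 to 0.26 for Tlx1. The excess of Nr2f2 over Nr2f1 was 0.47 to 1.28 without each number in turn, and the exact sign-flip test over pairs (replicate block) gave 0.92 with p = 0.25, the smallest that 3 pairs allow. Among the 7 genes and the list genes, leaving out the block changed the calls of Nr2f1, Foxf2 and Rgs5 and no other. Of 11 other named genes that passed, 3 also passed without the filter (Tcf21, Gata6 and Tmtc2). For the changes listed, the cause was not tested.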
